A study of Mus musculus with 7 samples.

Results

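Immediate early and activity-regulated genes were followed in Kiss1-expressing cells of the preoptic AVPV (anteroventral periventricular nucleus), which takes part in the surge of gonadotropin-releasing hormone before ovulation. The set was a fixed list of 37 gene symbols of activity-induced transcription factors, phosphatases and effectors, and each symbol matched 1 of the 55384 genes in the count table. All 7 libraries came from female C57BL/6 mice of the genotype Kiss1Cre+/Rpl22HA+/+, in which Kiss1-driven Cre recombinase switches on a hemagglutinin (HA) tag on the ribosomal protein Rpl22. The 4 GDX libraries came from ovariectomized mice without estradiol and the 3 E2 libraries from mice given estradiol. Each library held micropunches pooled from 4 brains, from which tagged ribosomes were pulled down and their RNA sequenced. The tag marks every cell in which Kiss1-Cre has acted, also in the past. Age, estradiol dose, treatment time and hour of collection are not given in the sources used here. In such bulk samples, fewer cells of a type and less RNA per cell cannot be told apart.

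Immediate early genes are switched on within minutes of a stimulus, without new protein synthesis, by factors already present in the cell. In neurons, calcium entry and cAMP act through CREB, and the ERK kinase cascade acts through serum response factor and its partners. Many of the products are transcription factors that control a later wave of effector genes, and others are phosphatases and inhibitors that end the signal. Fos RNA and protein are widely used in the hypothalamus as marks of recently active cells. Growth factors and hormones can induce the same genes.

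The libraries held 29207544 to 36213127 counts. Levels are given in CPM, counts scaled to a common library size. Kiss1, the defining gene of the labelled cells, was present in every library, at 44.5 to 113.5 CPM in GDX and 379 to 485 CPM in E2. The sum of 7 markers of AVPV kisspeptin neurons, Kiss1 among them, was 2240 to 2560 CPM in GDX and 3290 to 3440 CPM in E2, without overlap. Summed neuronal markers were 2940 to 3370 CPM in GDX and 3170 to 3350 CPM in E2. Glial and vascular RNA was present too, and none of the 45 glial, vascular and ependymal markers was at 0 in all libraries. Summed astrocyte markers were 841 to 2760 CPM in GDX and 612 to 710 CPM in E2. The corresponding sums were 199 to 520 and 115 to 194 CPM for endothelium, 147 to 533 and 90.8 to 132 CPM for mural cells, and 50.9 to 98.9 and 24.9 to 50.1 CPM for ependyma. The groups overlapped for microglia (118 to 139 and 118 to 146 CPM), oligodendrocytes (2790 to 5790 and 2590 to 3110 CPM) and their precursors (98.7 to 138 and 88 to 103 CPM). GDX replicates 1 and 4 held the highest astrocyte, endothelial, mural and ependymal sums. The mean log2 CPM of 32 astrocyte, oligodendrocyte, microglial and endothelial markers, called the non-neuronal score here, was 5.24 to 5.97 in GDX and 4.96 to 5.22 in E2. The groups did not overlap in this score, so a fit with it as a covariate cannot fully tell it apart from estradiol. The part of this RNA in the levels of the members was not tested.

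With estradiol 5 members rose, namely Trib1, Fosl2, Fos, Dusp6 and Sik1, and 1 fell, Ier5. The other 30 of the 36 members that passed the low-count filter were not called, among them Egr1, Npas4, Nr4a1 and Fosb, which are commonly induced together with Fos in active neurons. Calls were made at an adjusted p under 0.05 in edgeR's quasi-likelihood test, with Benjamini-Hochberg adjustment over all 18282 genes tested, and every adjusted p below is from that test unless another is named. Of the 36 members, 13.9% were called higher and 2.78% lower, where 2.55% of all tested genes were higher and 1.33% lower (3.88% in either direction). Across all genes 467 were higher and 243 lower, so 65.8% of calls were rises, against 52.2% with library sizes as the only scaling. With that scaling 4 members were higher and 1 lower.

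The log2 fold changes of the 36 members ran from −1.15 to 1.998 with a median of −0.16, where the median of all tested genes was 0.00. They were negative for 23 members, or 63.9%, where 49.2% of all tested genes were negative, and for 20 to 26 members under the alternatives tried. At an unadjusted p under 0.05 there were 6 members higher and 10 lower, where 16.8% of all tested genes were past it in either direction. The CPM values of the groups did not overlap for 11 members, 6 of them higher and 5 lower in E2. These are 16.7% and 13.9% of the 36, where 8.43% and 8.06% of all tested genes did not overlap.

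**Figure D1:**
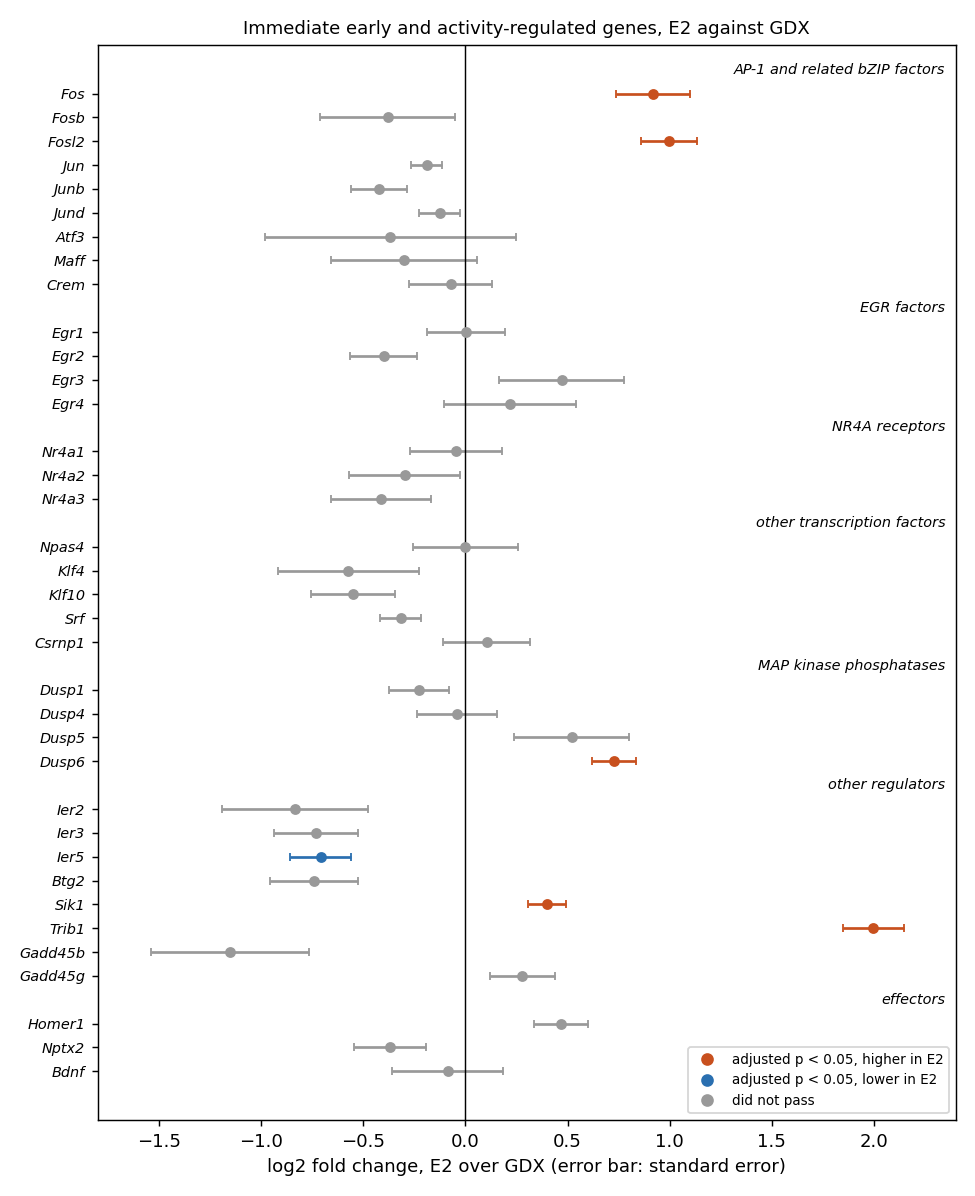
Log2 fold change of each of the 36 tested members, E2 over GDX, on the horizontal axis, with its standard error as the bar, grouped by role. Orange points rose and the blue point fell at an adjusted p under 0.05; Trib1 lies farthest right at 1.998, and Fos and Fosl2 stand apart from the other AP-1 and related genes, which run from −0.42 to −0.07.

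Among AP-1 genes, whose products pair through leucine zippers to bind DNA, Fos and Fosl2 rose and the Jun genes did not. Fos, the prototype immediate early gene (ENSMUSG00000021250, chromosome 12, 85473890 to 85477273, build GRCm38), was at 28.5, 29.3, 16.03 and 26.8 CPM in GDX replicates 1 to 4 and at 50.5, 46.3 and 45.7 CPM in E2 replicates 1 to 3. Every E2 library was above every GDX library, and GDX replicate 3 lay well below the other GDX libraries. The means were 25.2 ± 6.18 CPM (SD, n = 4) and 47.5 ± 2.63 CPM (SD, n = 3), a 1.89-fold rise (0.92 ± 0.18 in log2 units, adjusted p = 0.0197). The call was lost when any E2 library was left out (adjusted p = 0.102, 0.076 and 0.0753 without replicates 1, 2 and 3), with the log2 fold change at 0.87 to 0.94.

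Fosl2, which encodes the Fos-related antigen Fra-2, has a more lasting response than Fos in many cells. It was at 15.5, 14.01, 14.5 and 19.5 CPM in GDX and 35.2, 28.5 and 31.4 CPM in E2, and the groups were well apart. Fosl2 averaged 15.9 ± 2.503 CPM (SD) in GDX and 31.7 ± 3.37 CPM in E2, a 1.996-fold rise (0.996 ± 0.137 in log2 units, adjusted p = 0.00115). It was called under each of 18 alternative settings, with log2 fold changes of 0.92 to 1.15.

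Their close relative Fosb, which is known for a stable truncated product that builds up with repeated activity, was at 3.73, 5.03, 2.77 and 3.38 CPM in GDX and 3.73, 3.20 and 1.65 CPM in E2. The groups overlapped, and its log2 fold change was −0.38 ± 0.33 (adjusted p = 0.642). The last Fos family gene, Fosl1 (Fra-1), did not pass the filter, at 0 to 0.191 CPM, where 3 counts correspond to 0.0817 to 0.101 CPM. Over 1163 bp its exons also overlap Ccdc85b, an abundant gene on the opposite strand, and these libraries carry no strand information, so even its few counts are uncertain.

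The Jun genes encode the partners of Fos proteins. Jun was at 67.1 to 72.9 CPM in GDX and 58.5 to 61.8 CPM in E2, a log2 fold change of −0.19 ± 0.08 (adjusted p = 0.227). Its groups did not overlap, and every E2 library was lower. Junb was at 35.7, 39.1, 27.1 and 30.7 CPM in GDX and 22.3, 23.9 and 27.9 CPM in E2. At −0.42 ± 0.14 in log2 units it missed the threshold (adjusted p = 0.131), but it was called lower with limma-voom (0.0426), without the low-count filter (0.0188) and without GDX replicate 3 (0.0496). Jund, which most cells express steadily, was by far the most abundant member at 191 to 255 CPM, with a log2 fold change of −0.13 ± 0.10 (adjusted p = 0.598). Junb shares 173 bp of exon with Prdx2 on the opposite strand and Jund 877 bp with the antisense gene Gm11175, which leaves their levels uncertain in unstranded libraries.

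Of the related leucine zipper genes none passed. Atf3, a stress-induced factor, was at 0.599 to 2.20 CPM in GDX and 0.400 to 1.55 CPM in E2, and Maff, a small Maf protein gene, at 1.83 to 4.35 and 1.85 to 2.67 CPM. Crem, which encodes activators and the early repressor ICER from alternative promoters, was at 6.54 to 10.7 and 7.28 to 10.1 CPM. Gene-level counts do not separate ICER from the other Crem products, nor the truncated from the full Fosb product.

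Promoter windows are shown for the called members in the RefSeq promoter table (build GRCm38.p6), and for Fosb because it is the Fos relative that did not rise. Each runs 5′ to 3′ on the gene's strand from 250 bases before to 50 bases after the start of transcription. Capitals mark matches, on either strand, to the cAMP response element TGACGTCA or its core TGACG, the AP-1 site TGANTCA, the estrogen response element (GGTCA, any 3 bases, then TGACC), the EGR site GCGTGGGCG or the CArG box of serum response factor.
Fos, chr12:85473640-85473939, plus strand: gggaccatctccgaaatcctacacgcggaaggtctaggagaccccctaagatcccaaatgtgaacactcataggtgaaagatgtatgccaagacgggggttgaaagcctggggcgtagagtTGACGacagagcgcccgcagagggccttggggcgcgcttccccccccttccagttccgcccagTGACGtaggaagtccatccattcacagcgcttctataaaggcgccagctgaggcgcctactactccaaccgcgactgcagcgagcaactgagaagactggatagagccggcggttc
Fosl2, chr5:32136222-32136521, plus strand: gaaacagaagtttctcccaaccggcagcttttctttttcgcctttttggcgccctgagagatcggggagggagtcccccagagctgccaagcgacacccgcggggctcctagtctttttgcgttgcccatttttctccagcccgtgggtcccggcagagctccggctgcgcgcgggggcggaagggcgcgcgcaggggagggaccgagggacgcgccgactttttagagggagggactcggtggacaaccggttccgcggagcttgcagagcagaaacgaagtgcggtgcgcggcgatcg
Dusp6, chr10:99262981-99263280, plus strand: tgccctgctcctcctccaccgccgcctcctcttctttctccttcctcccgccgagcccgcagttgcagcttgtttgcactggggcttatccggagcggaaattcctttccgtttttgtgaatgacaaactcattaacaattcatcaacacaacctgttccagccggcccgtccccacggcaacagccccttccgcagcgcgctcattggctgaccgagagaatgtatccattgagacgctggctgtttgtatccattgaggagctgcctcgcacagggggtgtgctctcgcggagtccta
Ier5, chr1:155099587-155099886, minus strand: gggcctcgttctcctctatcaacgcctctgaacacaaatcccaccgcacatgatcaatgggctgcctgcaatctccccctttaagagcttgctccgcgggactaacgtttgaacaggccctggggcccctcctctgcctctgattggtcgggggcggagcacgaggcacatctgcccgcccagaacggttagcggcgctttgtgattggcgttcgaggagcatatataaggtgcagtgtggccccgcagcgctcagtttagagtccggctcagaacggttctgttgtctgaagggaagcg
Fosb, chr7:19309996-19310295, minus strand: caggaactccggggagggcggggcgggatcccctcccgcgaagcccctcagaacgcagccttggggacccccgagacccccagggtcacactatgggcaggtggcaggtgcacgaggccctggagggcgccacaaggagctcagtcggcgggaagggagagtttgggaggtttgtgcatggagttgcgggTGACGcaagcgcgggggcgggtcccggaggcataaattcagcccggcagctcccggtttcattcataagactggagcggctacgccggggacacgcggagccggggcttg
The core TGACG begins 129 and 66 bases upstream of the Fos start and 60 bases upstream of the Fosb start. None of the searched letters is in the windows of Fosl2, Dusp6 or Ier5. These windows of the rising genes Fos, Fosl2 and Dusp6 share none of these motifs, and the rising genes Trib1 and Sik1 had no window. The Fosl2 window lies downstream of the annotated gene start at 32135801 and does not cover it. The core is shared by Fos and Fosb, of which the first rose and the second did not pass.

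A window was found for 27 of the 37 members, and for genes with several windows any match was counted. The core TGACG was in 19 of 27 members (70.4%) and in 23.0% of all 27025 genes. The full element TGACGTCA, which contains the core, was in Btg2, Dusp1 and Maff (11.1%, against 2.03%), and the CArG box in Dusp5, Egr2 and Srf (11.1%, against 1.81%). The AP-1 site was in Bdnf and Csrnp1 (7.41%, against 8.97%), the EGR site in Maff (3.7%, against 0.707%), and the estrogen response element in none of the 27 (0.074% of all genes). Members had more windows per gene, 43 for 27 members against 32851 for 27025 genes, so the shares are not fully alike. The median GC content was 60.0% over the 43 member windows and 52.7% over all 32851 windows, so base composition also differed. A match is a string of letters and no evidence of binding.

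**Figure D2:**
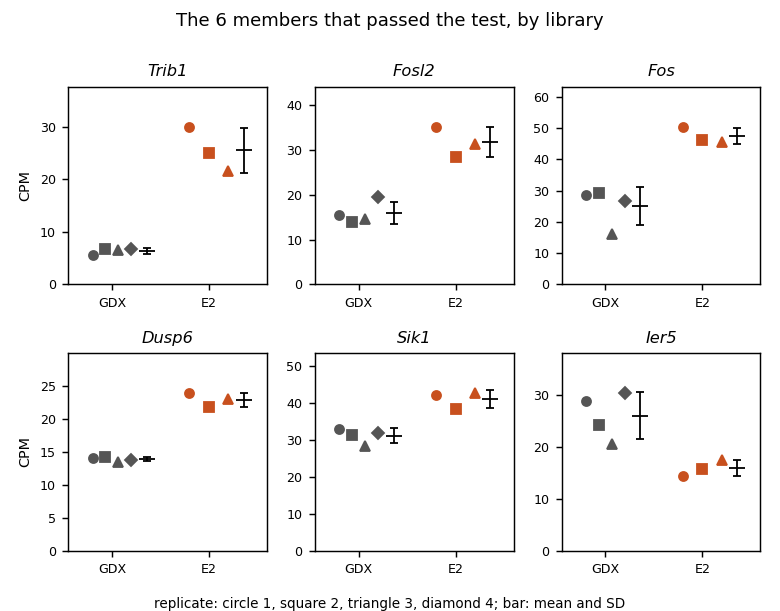
CPM of the 6 called members in each library, GDX in grey and E2 in orange, with the symbol shape giving the replicate and the black bar the mean and SD. The groups do not overlap in any of the 6; Trib1 goes from 5.59 to 6.70 CPM in GDX to 21.5 to 30.03 CPM in E2.

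The Egr genes encode zinc finger factors that are induced with Fos by synaptic activity and growth factors, and none of the 4 passed the test. Egr1 was at 53.8, 55.1, 35.1 and 57.5 CPM in GDX and 47.0, 41.9 and 62.4 CPM in E2. The groups overlapped, with E2 replicate 3 the highest and GDX replicate 3 the lowest of all libraries, and the log2 fold change was 0.00 ± 0.19 (adjusted p = 0.998). Egr2 was at 21.4, 20.2, 24.0 and 30.8 CPM in GDX and 21.5, 18.0 and 15.3 CPM in E2, a log2 fold change of −0.40 ± 0.17 (adjusted p = 0.244).

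Egr3 was at 4.88, 6.64, 3.82 and 3.32 CPM in GDX and 3.94, 7.28 and 8.15 CPM in E2. Egr4 was at 6.76, 7.54, 3.49 and 3.54 CPM in GDX and 4.96, 8.33 and 5.28 CPM in E2. Both genes overlapped between groups, with log2 fold changes of 0.47 ± 0.31 and 0.22 ± 0.32 (adjusted p = 0.493 and 0.816).

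The NR4A genes encode orphan nuclear receptors, of which Nr4a1 responds fastest and Nr4a2 is also a factor of dopamine neurons. Nr4a1 was at 18.1, 21.1, 10.8 and 17.2 CPM in GDX and 19.3, 12.3 and 17.1 CPM in E2, a log2 fold change of −0.05 ± 0.23 (adjusted p = 0.951). Nr4a2 was at 2.76 to 4.63 CPM in GDX and 2.94 to 3.26 CPM in E2, and Nr4a3 at 6.09 to 8.68 and 3.62 to 6.90 CPM. Neither passed, with log2 fold changes of −0.30 ± 0.27 and −0.41 ± 0.25 (adjusted p = 0.662 and 0.445).

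Npas4 is the member whose induction is most closely tied to calcium entry in neurons. It was at 6.59, 11.4, 6.95 and 4.97 CPM in GDX and 7.48, 8.10 and 6.83 CPM in E2. All E2 values lay inside the GDX range, and the log2 fold change was 0.00 ± 0.26 (adjusted p = 1).

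Klf4, a Krüppel-like factor gene also expressed in vessels, was at 10.8, 6.33, 5.35 and 14.2 CPM in GDX and 4.59, 6.09 and 7.86 CPM in E2 (−0.57 ± 0.34 on the log2 scale, adjusted p = 0.457). Its 2 highest values were those of GDX replicates 1 and 4, which also held the most vascular and astrocyte RNA. The part of that RNA in the Klf4 level was not tested, and with the non-neuronal score as a covariate the log2 fold change was 0.40. Klf10, a TGF-beta-inducible factor gene, was at 9.37 to 16.3 CPM in GDX and 7.12 to 8.73 CPM in E2, without overlap (−0.55 ± 0.21, adjusted p = 0.194).

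Srf encodes serum response factor itself, which acts upstream of several members. It was at 31.8, 31.7, 28.5 and 33.1 CPM in GDX and 24.98, 23.4 and 27.0 CPM in E2. Every E2 library was lower, but at −0.32 ± 0.10 in log2 units Srf missed the threshold (adjusted p = 0.13). Csrnp1, the gene of a nuclear protein induced by axin, was at 4.996 to 6.27 and 4.82 to 7.52 CPM (0.10 ± 0.21).

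Dual-specificity phosphatases remove phosphate from MAP kinases, and of 4 genes Dusp6 rose. Dusp6 (ENSMUSG00000019960, chromosome 10, 99263231 to 99267489) encodes a cytoplasmic phosphatase of ERK that is induced by ERK signalling. It was at 14.01, 14.2, 13.5 and 13.8 CPM in GDX and 24.0, 21.9 and 23.0 CPM in E2. Both groups were tight and far apart. Dusp6 averaged 13.9 ± 0.302 CPM (SD) in GDX and 23.0 ± 1.06 CPM in E2, a 1.66-fold rise (0.73 ± 0.11 in log2 units, adjusted p = 0.0022), and the call held under each of 18 alternatives (highest adjusted p = 0.0482).

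Dusp1, a nuclear phosphatase gene and one of the fastest members, was at 21.0, 25.3, 16.5 and 22.2 CPM in GDX and 18.4, 19.1 and 16.9 CPM in E2 (−0.23 ± 0.15, adjusted p = 0.484). Dusp4 was at 7.80 to 10.9 and 6.92 to 10.2 CPM (−0.04 ± 0.19). Dusp5, which acts on nuclear ERK, was at 2.13 to 3.27 CPM in GDX and 2.997 to 4.59 CPM in E2 (0.52 ± 0.28, adjusted p = 0.398). Dusp5 shares 547 bp with an antisense gene, and Dusp1 11 bp with Ergic1 on the opposite strand.

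The widest change of any member was that of Trib1 (ENSMUSG00000032501, chromosome 15, 59648350 to 59657099), which encodes a pseudokinase that brings the COP1 ubiquitin ligase to C/EBP transcription factors. Trib1 was at 5.59, 6.70, 6.56 and 6.70 CPM in GDX and 30.03, 25 and 21.5 CPM in E2. The lowest E2 library was above the highest GDX library by a wide margin. Trib1 averaged 6.39 ± 0.538 CPM (SD) in GDX and 25.5 ± 4.28 CPM in E2, a 3.995-fold rise (1.998 ± 0.149 in log2 units, adjusted p = 1.28e-05). The log2 fold change was 1.81 to 2.11 under 18 alternatives, each of which called it.

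Sik1, a salt-inducible kinase that holds CREB coactivators out of the nucleus and is itself a CREB target, was at 33.0, 31.3, 28.4 and 31.8 CPM in GDX and 42.1, 38.2 and 42.7 CPM in E2. The groups did not overlap, and the mean rose from 31.1 ± 1.95 to 41.0 ± 2.41 CPM, 1.32-fold (0.40 ± 0.09, adjusted p = 0.0361). The call was lost in 9 of 18 alternatives, with adjusted p up to 0.167: without GDX replicate 1, 2 or 3, without any E2 replicate, with the replicate block, with the covariate and with library sizes as the only scaling.

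Ier5, a gene of a regulator linked to protein phosphatase PP2A and heat shock factor, was the only member called lower. It was at 28.8, 24.1, 20.4 and 30.3 CPM in GDX and 14.4, 15.7 and 17.5 CPM in E2, with every E2 library below every GDX library. The mean fell from 25.9 ± 4.52 to 15.9 ± 1.55 CPM, 1.64-fold higher in GDX (−0.71 ± 0.15, adjusted p = 0.0204). GDX replicates 1 and 4 were also the libraries with the highest astrocyte, endothelial, mural and ependymal sums. Without both of them the log2 fold change was −0.49 (adjusted p = 0.0833), and with the non-neuronal score as a covariate it was −0.35 (0.487). That fit cannot fully separate the score from estradiol, and the part of glial and vascular RNA in the Ier5 level was not tested. The call was also lost without GDX replicate 1 (0.0732) and without E2 replicate 1 (0.123), 2 (0.0906) or 3 (0.0517).

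Ier2, Btg2, Ier3 and Gadd45b did not pass the test. Ier2 was at 8.20, 6.13, 3.13 and 8.29 CPM in GDX and 2.93, 5.17 and 2.74 CPM in E2 (−0.83 ± 0.36, adjusted p = 0.267). Its log2 fold change was −0.36 without GDX replicates 1 and 4, and −0.019 with the covariate, and it was called lower only with no low-count filter (adjusted p = 0.0396). Btg2, an antiproliferative gene that recruits the deadenylation machinery, was at 15.2, 15.8, 9.09 and 16.4 CPM in GDX and 10.04, 7.51 and 7.72 CPM in E2 (−0.74 ± 0.22, adjusted p = 0.0908). GDX replicate 3 alone overlapped the E2 libraries for Btg2, and without it Btg2 was called lower (−0.90, adjusted p = 0.0103), as it was with DESeq2's Wald test (0.0172) and no low-count filter (0.00219).

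Ier3 was at 6.81, 8.18, 8.89 and 9.43 CPM in GDX and 4.19, 6.03 and 4.82 CPM in E2, without overlap (−0.73 ± 0.21, adjusted p = 0.0833), and was called lower with DESeq2's Wald test (0.0148) and no low-count filter (0.0413). Gadd45b, a gene of DNA demethylation and stress signalling, was at 8.34, 4.59, 3.60 and 10.9 CPM in GDX and 3.23, 2.21 and 3.83 CPM in E2 (−1.15 ± 0.39, adjusted p = 0.152). Its log2 fold change was −0.41 without GDX replicates 1 and 4, and −0.13 with the covariate. It was called lower with DESeq2's Wald test (adjusted p = 0.031), with no low-count filter (0.000933) and without GDX replicate 3 (0.0461). Its paralog Gadd45g was at 14.4 to 17.1 CPM in GDX and 14.7 to 23.4 CPM in E2 (0.28 ± 0.16, adjusted p = 0.418).

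None of the 3 effector genes passed. Homer1, whose short activity-induced form uncouples synaptic scaffolds, was at 17.0, 14.9, 16.4 and 16.9 CPM in GDX and 19.3, 26.8 and 21.4 CPM in E2. Its groups did not overlap, with a log2 fold change of 0.47 ± 0.13 (adjusted p = 0.0863), and it was called higher with the DESeq2 Wald test (0.0335) and with no low-count filter (0.0407). The counts do not separate the short form from the long ones.

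Nptx2, a secreted pentraxin gene that gathers AMPA receptors, was at 15.4 to 21.7 CPM in GDX and 10.6 to 16.9 CPM in E2 (−0.37 ± 0.18, adjusted p = 0.329). Bdnf, a neurotrophin gene with several activity-regulated promoters that the counts join, was at 3.35 to 6.75 and 3.76 to 5.27 CPM (−0.09 ± 0.27, adjusted p = 0.917). Bdnf shares 896 bp of exon with a gene on the opposite strand, Crem 472 bp, Jun 232 bp and Csrnp1 224 bp. The mean counts of these opposite-strand genes were 1.5, 17.2, 11.1 and 1.6 in that order. The 6 called members share no annotated exon with another gene of the table.

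Levels can be compared between genes only per length, here as CPM per kb of merged exons averaged over all 7 libraries. Jund had the highest level, 134 CPM per kb, followed by Jun at 20.5, Fos at 14.8, Gadd45g at 14.7, Junb at 12.8 and Egr1 at 11.2 CPM per kb. Fos went from 10.7 CPM per kb in GDX to 20.2 in E2, and Junb from 14.4 to 10.7. Trib1 stood at 1.02 CPM per kb in GDX and 4.08 in E2, and Fosl2 at 1.64 and 3.27. Fosb (0.537), Atf3 (0.465) and Fosl1 (0.036 CPM per kb) were lowest.

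**Figure D3:**
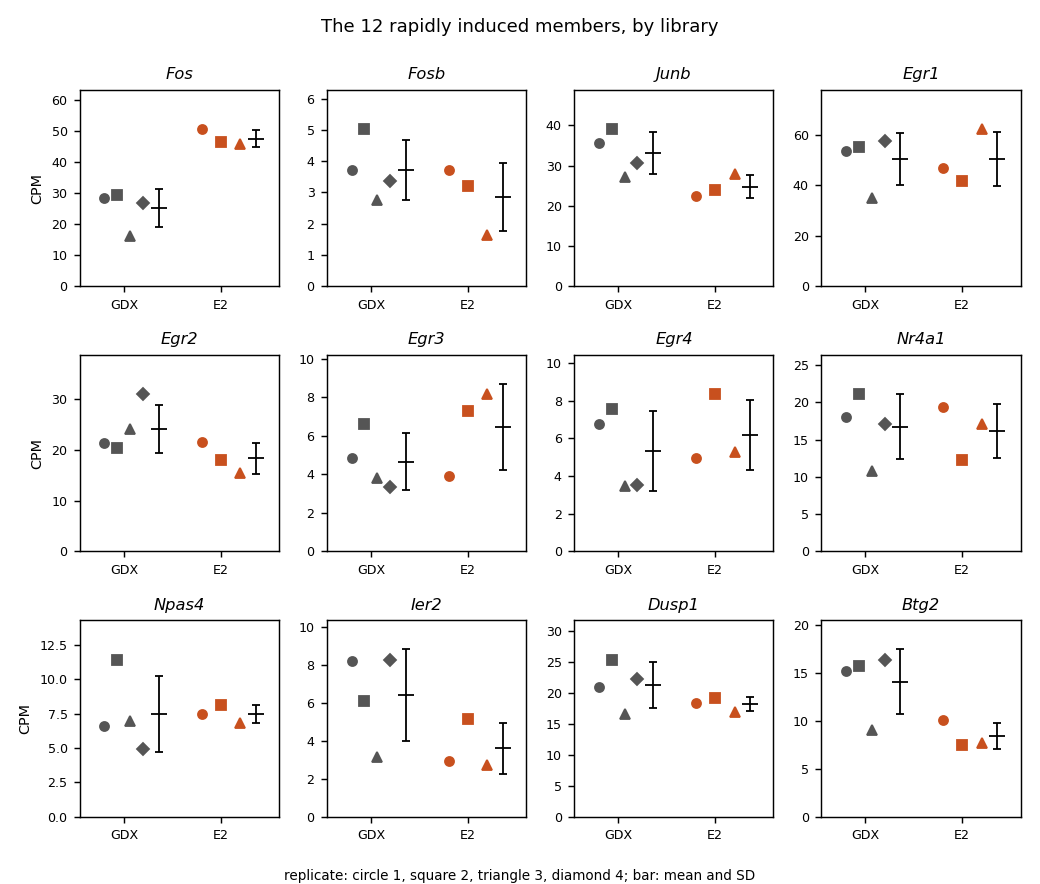
CPM by library for the 12 rapidly induced members, GDX in grey and E2 in orange, with the symbol shape giving the replicate and the black bar the mean and SD. Only Fos, at 45.7 to 50.5 CPM in E2, has groups that do not overlap; GDX replicate 3 (triangle) is the lowest GDX library in 9 of the 12 panels.

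The 12 members listed as rapidly induced did not move together with estradiol. These were 12 genes that are classed as fast responders from general knowledge: Fos, Fosb, Junb, Egr1, Egr2, Egr3, Egr4, Nr4a1, Npas4, Ier2, Dusp1 and Btg2. The list was made with earlier results of these data known, and of the called members it holds Fos alone. Of the 12 genes 1 rose, none fell and 11 did not pass. Among the 11, Junb, Btg2 and Ier2 were called lower under some alternative settings. Their log2 fold changes ran from −0.83 to 0.92 with a median of −0.14, 5 of them positive and 7 negative, though Egr1 and Npas4 lie so near 0 that other scalings put them below it. Fos was the only one of the 12 with groups that did not overlap (8.33%, where 16.5% of all tested genes did not overlap).

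Within the GDX group, most of the fast responders were lowest in the same library. GDX replicate 3 was the lowest GDX library for 9 of the 12, where it was lowest for 27.9% of all tested genes and for 10 of the other 24 tested members. The median of the 12 genes in that library was 0.44 below the GDX mean on the log2 scale, against a median of 0.005 above it for all tested genes. GDX replicate 2 was the highest GDX library for 8 of the 12, with a median of 0.26 above the GDX mean, where it was highest for 21.5% of all tested genes. The 3 genes for which GDX replicate 3 was not lowest were Egr2, Egr3 and Npas4. In E2 the lowest library was replicate 1 for 3, replicate 2 for 3 and replicate 3 for 6 of the 12. These counts describe genes that share libraries and carry no test.

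GDX replicates 1 and 4 together held the 2 highest GDX values for 23 of 25 astrocyte, endothelial, mural and ependymal markers. The same was true of 10 of 36 members (27.8%), which were Fosl2, Jun, Nr4a3, Ier2, Ier5, Klf4, Homer1, Sik1, Gadd45b and Srf, and of 23.7% of all tested genes. Of the 12 fast responders it was true of Ier2 alone. Without both libraries Trib1, Fosl2, Fos, Dusp6 and Sik1 were still called higher and no member was called lower. With the non-neuronal score as a covariate 4 members were called higher, Trib1, Fosl2, Fos and Dusp6, and none lower.

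**Figure D4:**
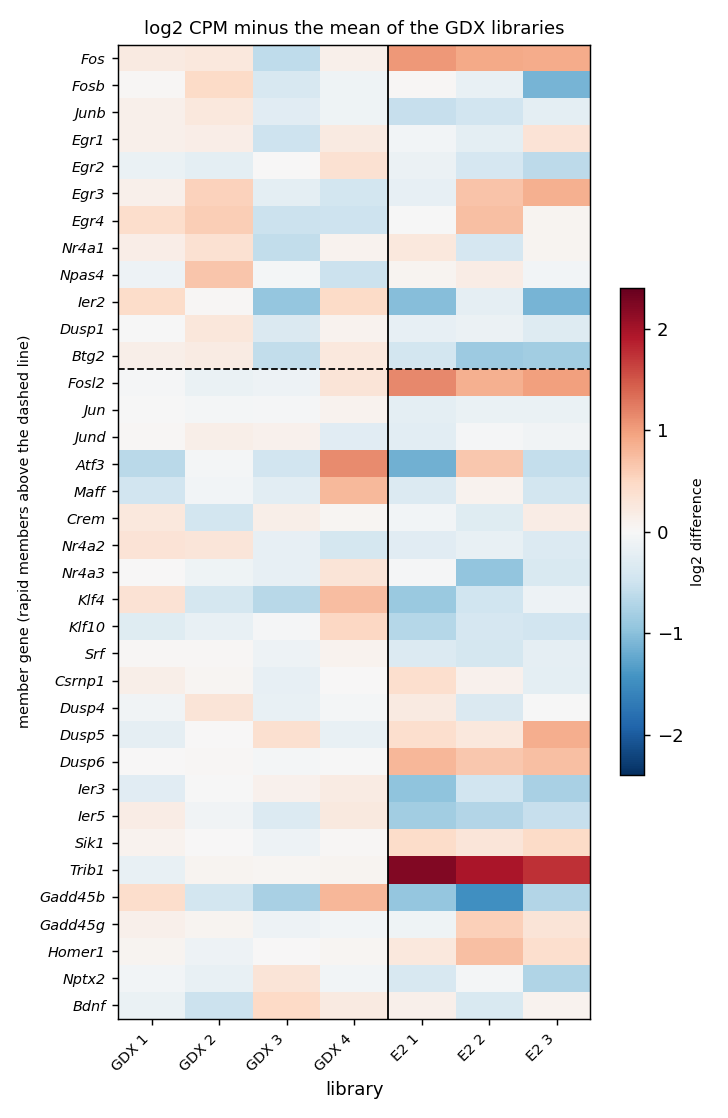
Log2 CPM of each tested member minus the mean of the 4 GDX libraries, by library, with red for higher and blue for lower; the fast responders stand above the dashed line and the vertical line parts GDX from E2. Rows of Trib1, Fosl2, Fos and Dusp6 are red in all 3 E2 libraries, and the GDX 3 column is blue for most fast responders.

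Genes that carry calcium, cAMP and CREB signals to these promoters included 4 of 26 that rose and none that fell (15.4% higher, where 2.55% of all tested genes were). Prkacb, a catalytic subunit gene of protein kinase A, rose from 679 ± 37.5 to 935 ± 12.6 CPM (0.46 in log2 units, adjusted p = 0.00132). Camk4, the gene of a nuclear kinase that phosphorylates CREB, rose from 7.49 to 13.8 CPM (0.88, adjusted p = 0.0202), a call lost in 5 of 18 alternatives. Camk2b went from 624 to 739 CPM (0.24, adjusted p = 0.0419), and its call was lost in 13 of 18 alternatives, with adjusted p up to 0.368. The count was 2 without E2 replicate 1, 2 or 3, with the replicate block and with the covariate, and Prkacb was called in all settings. With library sizes as the only scaling and with DESeq2, 1 gene of the list was called lower. Creb1, the gene of CREB, was at 35.3 to 44.0 CPM in GDX and 29.3 to 31.7 CPM in E2 (−0.35 ± 0.10, adjusted p = 0.0877), and its relative Atf1 was at −0.03 on the log2 scale. The list's median log2 fold change was 0.02.

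Of 28 genes of MAP kinase, SRF and MEF2 signalling 3 rose and none fell (10.7% higher), and in 8 of 18 alternatives 1 gene of the list was called lower. Rps6ka3, the gene of the ERK-activated kinase RSK2, rose from 19.3 ± 3.56 to 35.8 ± 2.496 CPM (0.89, adjusted p = 0.00318). Map2k1, which encodes the ERK kinase MEK1, rose from 302 ± 14.1 to 427 ± 12.8 CPM (0.50, adjusted p = 0.000796), and both genes were called in every setting. Mrtfa, a coactivator gene of serum response factor, rose from 45.2 to 67.2 CPM (0.57), a call lost with the covariate (adjusted p = 0.12). The Ras gene Hras missed the threshold, at 0.06 in log2 units. The list's median was 0.01.

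Of 36 other activity-regulated genes 8 rose and 1 fell (22.2% higher, 2.78% lower), with a median log2 fold change of 0.18. The GTPase gene Rasd1 rose from 14.1 ± 3.25 to 84.7 ± 13.5 CPM (2.59, adjusted p = 1.79e-05). Pim1, which encodes a kinase, rose from 2.39 to 5.51 CPM (1.20) and Tiparp, an ADP-ribosyltransferase gene, from 11.1 to 24.9 CPM (1.16). The granin gene Scg2 rose from 3588 ± 420 to 6101 ± 540 CPM (0.77), and Rgs2, which encodes a brake on G protein signalling, fell from 54.4 ± 5.01 to 34.5 ± 2.90 CPM (−0.66). The 8 rises went to 3 without E2 replicate 1 and to 4 without E2 replicate 3 or with the covariate. Rasd1, Scg2 and Rgs2 kept their calls in every setting, and Pim1 and Tiparp each lost theirs in 4. Arc, whose RNA travels to active synapses, was at 15.1 to 20.7 CPM in GDX and 14.4 to 19.7 CPM in E2 (−0.08 ± 0.16, adjusted p = 0.87), and Amigo3 did not pass at 0.54 ± 0.32.

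Of 18 stress and acute-phase genes, which share inducers with the members, 2 rose and none fell (11.1% higher), with a median of 0.02. These were Myc, from 3.21 to 6.35 CPM (0.99, adjusted p = 0.0477), and the chaperone gene Hsph1, from 473 to 618 CPM (0.39, adjusted p = 0.0152). The Myc call was lost in 13 of the 17 alternatives that tested it, other scalings included (adjusted p up to 0.349), and the Hsph1 call in 4 of 18 (up to 0.188). The count was 0 without GDX replicate 1, without E2 replicate 1 or 2 and with the covariate, and 1 in 9 other alternatives. The heat shock genes Hspa1a and Hspa1b did not pass, at log2 fold changes of −0.48 ± 0.13 and −0.26 ± 0.16. Under several other settings 1 or 2 genes of this list were called lower. All 4 lists were chosen with earlier results of these data known, so their counts are descriptions.

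**Figure D5:**
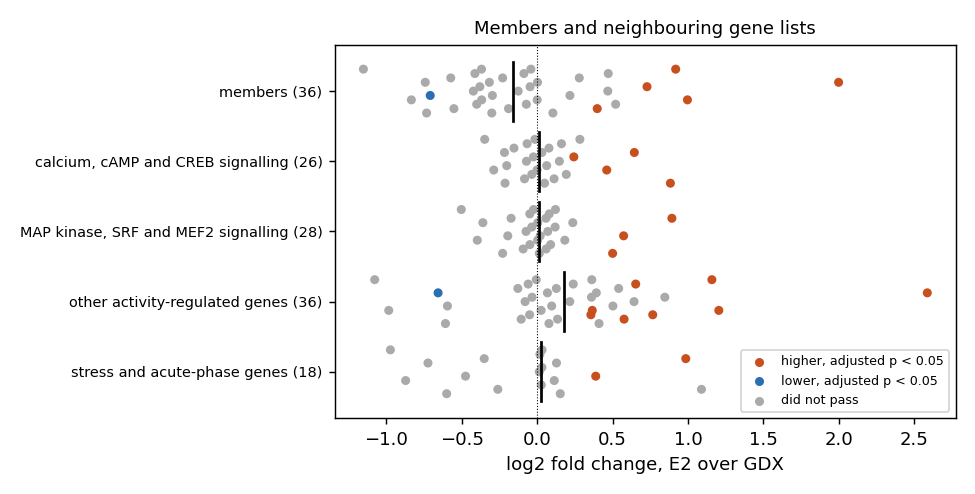
Log2 fold change, E2 over GDX, of every tested gene in the member set and in 4 neighbouring lists, with the number tested in brackets and the list's median as a black line. Orange points rose and blue points fell at an adjusted p under 0.05; the medians run from −0.16 for the members to 0.18 for the other activity-regulated genes.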

How the data were processed

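Ribosome-bound RNA was measured in 7 libraries, and the authors deposited 1 expected count per gene and library, of which 33.1% of non-zero values were not whole. Trimmomatic 0.38, STAR 2.6.0a, RSEM 1.3.0 and mm10 are named without roles in the submitters' processing notes. Symbols and coordinates came from GENCODE vM21 (GRCm38), which matched 55203 of 55384 genes. Expected counts were rounded and tested in R 4.3.3 with edgeR 4.0.16: TMM factors, filterByExpr (minimum count 10, minimum total 15), robust quasi-likelihood F test of E2 against GDX over all 7 libraries, Benjamini-Hochberg adjustment over 18282 genes, called under 0.05. CPM use TMM-scaled library sizes. Log2 fold changes use a prior count of 0.125, and per-library log2 CPM a prior count of 2. Standard errors were derived from the F statistics. Libraries are pools, so p-values measure spread between pools. Alternatives were other scalings, filters and tests (DESeq2 1.42.0, limma 3.58.1 voom), a replicate block, a covariate and left-out libraries. Leaving out GDX replicates 1 and 4 together was added after the data were seen. The test was also run on simulated data, and the outcome is not reported here. The floor of 3 counts covers counting error only. Members and lists were chosen with earlier results of these data known. All 37 members are named, and from each neighbouring list up to 5 called genes with the largest change and the first 2 tested genes that did not pass. Some genes of these lists are counted but not reported here by name. The marker summary of GDX replicates 1 and 4 among members was chosen after values were seen.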

Additional observations from a re-analysis of the deposited data

Results flagged for a closer look

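In a group of 4 libraries, a value far from the other 3 was looked for in each of the 36 tested members in GDX, and chance gives about 1 such value in 20 groups. Egr1 was low in GDX replicate 3, at 35.1 CPM against 53.8 to 57.5 CPM in the other GDX libraries. Btg2 was low in the same library, at 9.09 CPM against 15.2 to 16.4 CPM. Trib1 was low in GDX replicate 1, at 5.59 CPM against 6.56 to 6.70 CPM.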

How the results depend on the processing

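Trib1, Fosl2 and Dusp6 were called higher under all 18 alternatives. Over all members and alternatives, 561 member fold changes kept their direction and side of the threshold, 14 passed only under the alternative, 19 lost their call and 48 changed sign, the last all among members that did not pass. The causes of these changes were not tested. The number of members called lower was 6 with no low-count filter, 4 with DESeq2's Wald test and 2 with limma-voom. It was 0 with the covariate, with the replicate block and without both GDX replicates 1 and 4. It was also 0 without GDX replicate 1 alone and without E2 replicate 1, 2 or 3. Across all genes, 722 were higher and 887 lower with no filter, 725 lower with DESeq2, 398 lower with limma-voom, and 229 higher and 100 lower with the covariate. The share of rises among calls was 44.9% with no filter and 48.2% with DESeq2. Leaving out 1 library at a time gave 3 to 5 members higher, 0 to 4 lower, 268 to 591 genes higher and 96 to 428 lower. The 3 members higher came without E2 replicate 1, 2 or 3, and the 4 lower without GDX replicate 3.

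Same-numbered libraries of the 2 groups deviated from their group means with correlations of −0.02, −0.038 and −0.055 across genes. Differently numbered libraries had −0.057 to 0.042. No pairing by number showed in these values, and a shared batch was not tested. With the replicate number as a block, 4 members were higher and 0 lower, and Ier5 (adjusted p = 0.0767) and Sik1 (0.0841) lost their calls. The log2 fold changes that turned sign with the block were −0.114 for Npas4, 0.028 for Atf3, 0.015 for Bdnf and 0.029 for Maff.

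Egr1 turned to −0.005 with DESeq2 size factors, with no filter, with a minimum mean of 5 CPM and with DESeq2, to −0.016 with upper-quartile factors, −0.06 with library sizes only and −0.051 with limma-voom. Npas4 turned to −0.007, −0.005, −0.009, −0.007, −0.02, −0.061 and −0.013 under the same settings in that order. Bdnf was 0.093 with limma-voom. With the covariate Nr4a1 was 0.094, Npas4 −0.365, Klf4 0.401, Atf3 0.305 and Crem 0.12. Without GDX replicates 1 and 4 the values were 0.026 for Nr4a1, −0.3 for Npas4, 0.076 for both Klf4 and Atf3, and 0.075 for Crem. Leaving out 1 library at a time, the log2 fold change ran from −0.181 to 0.119 for Egr1, −0.059 to 0.429 for Egr4, −0.208 to 0.118 for Nr4a1, −0.152 to 0.276 for Npas4, −0.182 to 0.093 for Dusp4, −1.1 to 0.212 for Atf3, −0.237 to 0.095 for Bdnf, −0.472 to 0.038 for Maff, −0.2 to 0.038 for Crem and −0.067 to 0.249 for Csrnp1. Atf3, with means of 1.11 CPM in GDX and 0.859 CPM in E2, had the largest standard error of the members, 0.615.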
